A study of Homo sapiens with 6 samples.

Results

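The annexins and the S100 proteins are the calcium-binding families described here, in K562 cells with and without the part of EP400 that holds TRRAP. Members were taken by name alone. All gene symbols made of ANXA and a number, or of S100A and a number, were included, together with S100B, S100G, S100P and S100Z. This gave 31 genes, 12 annexins and 19 S100 genes, of the 60609 genes in the count files.

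Annexins share a conserved core of repeats that binds phospholipid membranes when calcium rises, and they act in membrane trafficking, membrane repair and the control of inflammation. S100 proteins are small dimeric proteins with EF-hand calcium sites that open a binding face for partner proteins. Members of the families bind each other, and among these pairs are S100A10 with ANXA2 and S100A11 with ANXA1. Most S100 genes lie together on the long arm of chromosome 1.

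K562 is an established human leukaemia line with erythroid and megakaryocytic features, and its poly(A) RNA was sequenced here in 6 libraries. In every library the endogenous EP400, the ATPase subunit of the TIP60 chromatin complex, carried a degradation tag, and the cells had received 500 nM dTAGV-1, a degrader compound that removes the tagged protein, for 24 h. The groups differed in the EP400 expressed from the AAVS1 safe harbor, which was either WT or Delta-TRRAP, a form that lacks the SANT and HD domains that tether TRRAP, with 3 libraries each. The comparison asks which transcripts depend on the TRRAP module. Each complemented line was a single clone by the methods of the study, so clone and genotype cannot be told apart. The methods call the 3 libraries of a group biological replicates, and the p-values measure the spread between these replicates of 1 clone, not between clones.

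WT libraries held between 39966818 and 42616061 gene counts and Delta-TRRAP libraries between 35076835 and 38491513, spread over 25668 to 25998 and 27928 to 28033 genes. Levels below are normalized counts, that is, counts scaled to the same effective library size. A fold change is Delta-TRRAP over WT, and a gene was called higher or lower at an adjusted p of 0.01 or less and a change of at least 2-fold, by the quasi-likelihood test of edgeR over the 19114 genes whose mean over the libraries was 5 or more. EP400 itself ranged from 4897 up to 5377 (WT) and from 4357 up to 6833 (Delta-TRRAP), with a log2 fold change of 0.14 ± 0.11 (SE) and an edgeR adjusted p of 0.272. Its counts may hold reads of both the endogenous gene and the transgene, which were not told apart.

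The largest differences in both families were falls. S100P, S100A4, S100A6 and S100A1 fell among the S100 genes, and ANXA3 and ANXA1 fell among the annexins. ANXA9, S100A10 and S100A5 rose. Of the 31 members, 21 passed the filter on low counts and 9 of these were called, 6 lower and 3 higher. Over all tested genes, 22.6% were called in either direction, 16.5% higher and 6.08% lower. Among the tested members 42.9% were called, and 14 passed the adjusted p whatever their fold, against 58.3% of all tested genes. The median log2 fold change was -0.18 over the 21 tested members and 0.03 over all tested genes. S100A5 and S100A9 passed the filter only through Delta-TRRAP, and S100A3 and S100Z only through WT, so these members had to differ to be tested and the shares above are a description.

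**Figure D1:**
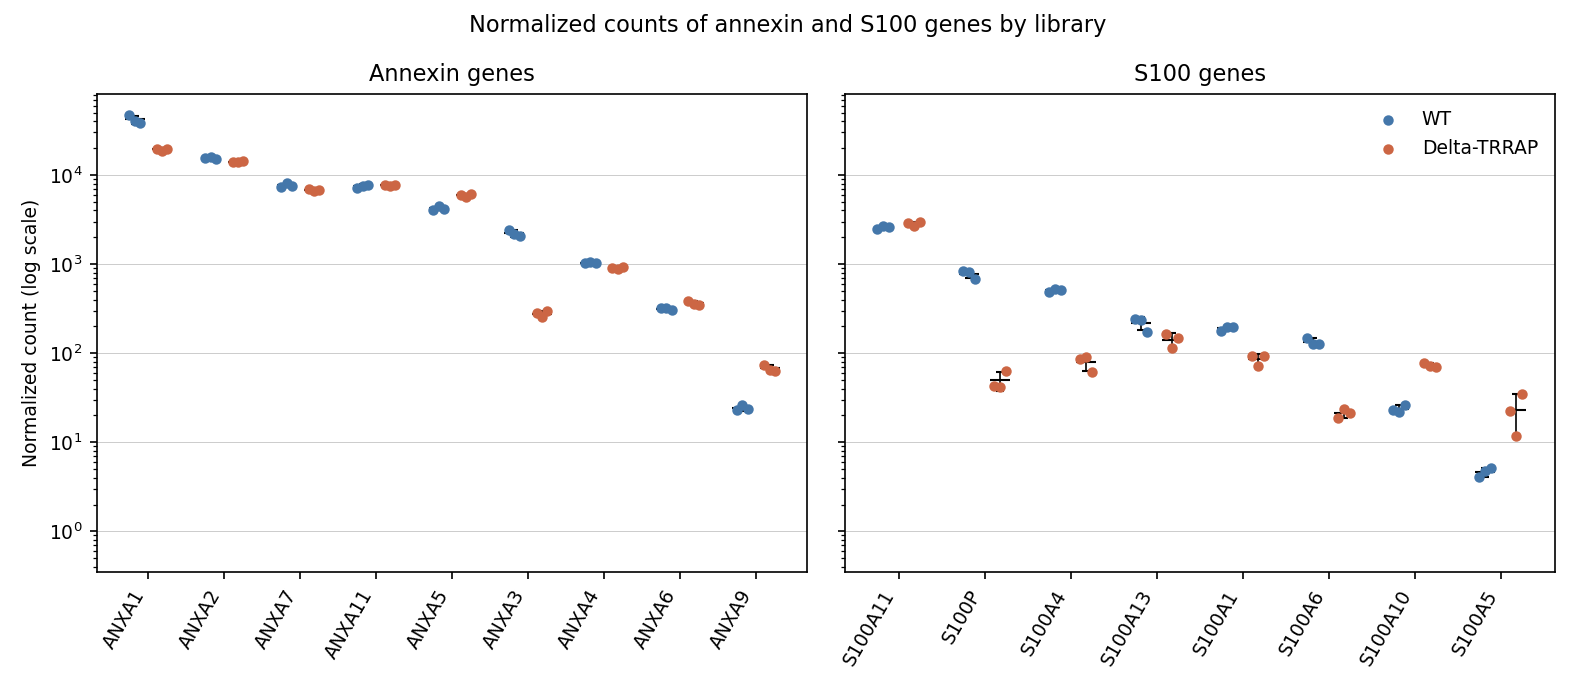
Normalized counts (log axis) in each library for the called members and the tested members with a mean of at least 100; points are the 3 WT and 3 Delta-TRRAP libraries, horizontal lines the means and vertical bars the SD. S100P, S100A4, S100A6 and ANXA3 drop farthest, from a mean of 778.7 to 49.51 in S100P, while the groups overlap in ANXA11.

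The sequences just upstream of the transcription start are shown for 6 called members: S100A6, S100A5 and S100A4 as neighbours on the chromosome, S100P and ANXA3 for their large falls, and ANXA1 as the most abundant member. Each is the 100 bases before the start, 5′ to 3′ on the strand of the gene, from RefSeq on GRCh38.p14, with capitals marking TATAAA.
S100P, chr4:6693778-6693877, plus strand: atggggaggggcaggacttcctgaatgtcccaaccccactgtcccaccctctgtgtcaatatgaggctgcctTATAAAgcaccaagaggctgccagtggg
S100A4, chr1:153545807-153545906, minus strand: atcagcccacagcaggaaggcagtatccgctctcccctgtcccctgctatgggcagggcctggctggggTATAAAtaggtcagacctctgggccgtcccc
S100A5, chr1:153541810-153541909, minus strand: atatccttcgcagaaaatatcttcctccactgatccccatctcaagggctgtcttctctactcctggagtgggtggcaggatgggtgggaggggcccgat
S100A6, chr1:153535992-153536091, minus strand: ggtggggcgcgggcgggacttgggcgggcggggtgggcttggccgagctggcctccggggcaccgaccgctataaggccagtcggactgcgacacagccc
ANXA1, chr9:73151765-73151864, plus strand: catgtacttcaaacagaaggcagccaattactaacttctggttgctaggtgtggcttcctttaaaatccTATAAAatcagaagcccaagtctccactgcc
ANXA3, chr4:78551670-78551769, plus strand: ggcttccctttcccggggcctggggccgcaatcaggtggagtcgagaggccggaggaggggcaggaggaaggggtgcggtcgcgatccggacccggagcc

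Of the 31 members, 28 had a promoter in the RefSeq table (250 bases before to 50 after the start, 300 in all). TATAAA on either strand began 20 to 40 bases before the start in 8 of the 28, or 28.6%, against 3.1% of 27305 promoters. It was present there in 3 of the 6 members that fell and in 0 of the 3 that rose. These are few members, and a link with the direction of change was not tested. It began 31 bases before the start in ANXA1 and S100A4 and 28 in S100P. The other matches were in members not called or not tested (ANXA2, ANXA10, S100A7, S100A9 and S100G). Only TATAAA itself was counted, so the tataag in the S100A6 sequence was not. The E-box CACGTG was found in the 300 bases of 1 member, ANXA6, against 7.43% of all promoters, and the E2F motifs TTTCCCGC and TTTGGCGC in 0 of 28, against 2.31%. The AP-1 motif TGANTCA was found in 4 of the 28 (S100A12, ANXA2, S100A3 and S100A2), against 7.76% of all promoters. The GATA motifs AGATAA and TGATAA were found in 3 of the 28 (ANXA10, ANXA7 and S100Z), against 16.6%. None of the members with an AP-1 or GATA match was called. All were searched on both strands. Members that fell differed in the CpG content of their promoters: the 300 bases of ANXA1 held 0 CpG, S100P 5, S100A1 6 and S100A4 8, whereas ANXA3 held 25 and S100A6 31, beside a median of 14 over all promoters. A match is a string of letters in this window and not a measured site.

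Among the annexins, ANXA1, a phospholipid-binding protein induced by glucocorticoids and a ligand of formyl peptide receptors, was the most abundant. Its normalized count was 46808, 40443 and 38809 in the WT libraries and 19595, 18798 and 19705 in the Delta-TRRAP libraries. Every Delta-TRRAP library was far below every WT library, and WT replicate 1 was the highest. ANXA1 (chromosome 9, 73151865 to 73170393) thus fell 2.17-fold, from 42020 ± 4227 to 19366 ± 494.9 (mean ± SD, n = 3), with a log2 fold change of -1.12 ± 0.07 (SE) and an edgeR adjusted p of 7.89e-10. With scaling by library size alone its log2 fold change was -0.98, just inside 2-fold. That scaling moved the median of all tested genes by 0.13 and upper-quartile scaling moved it by 0.10 on the log2 scale.

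ANXA3 had the largest fall of the family. This annexin was at 2407, 2173 and 2060 in WT and at 281.4, 256.4 and 295.1 in Delta-TRRAP. The groups lay far apart and the libraries within each were close. The mean fell 7.98-fold, from 2214 ± 177.1 to 277.6 ± 19.64, with a log2 fold change of -3.00 ± 0.08 and an edgeR adjusted p of 5.36e-14. ANXA9, an annexin whose calcium-binding sites are atypical, went the other way: it was at 23.3, 25.9 and 23.4 in WT and 74.53, 65.32 and 63.47 in Delta-TRRAP. It rose 2.79-fold from a low level (log2 fold change 1.48 ± 0.18, edgeR adjusted p 3.38e-06), with no overlap of the groups.

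The other abundant annexins differed by less than 2-fold. ANXA5, the phosphatidylserine-binding protein used to stain dying cells, was at 4088, 4530 and 4126 in WT and 5896, 5703 and 6078 in Delta-TRRAP. All 3 Delta-TRRAP libraries were above WT, and the log2 fold change of 0.47 ± 0.05 had an edgeR adjusted p of 1.66e-06 without reaching 2-fold. ANXA2, which binds S100A10 and through it plasminogen activators at the cell surface, was at 15346, 15797 and 15212 in WT and 14160, 13990 and 14297 in Delta-TRRAP. Its log2 fold change was -0.13 ± 0.05 (edgeR adjusted p 0.0277), and it was 0.006 when libraries were scaled by size alone, so its sign depended on the scaling.

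ANXA7, or synexin, was at 7378, 8104 and 7538 in WT and 6875, 6591 and 6809 in Delta-TRRAP. ANXA4 was at 1035, 1065 and 1016 in WT and 913.9, 889.1 and 919.2 in Delta-TRRAP. Both passed the adjusted p but not the fold, with log2 fold changes of -0.18 ± 0.05 (edgeR adjusted p 0.00578) and -0.20 ± 0.05 (edgeR adjusted p 0.00491). Neither passed under upper-quartile scaling (edgeR adjusted p 0.186 and 0.151) or with scaling by library size alone (0.411 and 0.331). The same held with a replicate block (0.0187 and 0.0141) and without WT replicate 2 (0.0517 and 0.0286). Both missed the adjusted p in other refits too. ANXA6, which carries a duplicated annexin core, was at 325.3, 319.4 and 303.2 in WT and 389.3, 354.8 and 346.9 in Delta-TRRAP (log2 fold change 0.20 ± 0.08, edgeR adjusted p 0.0319). ANXA11, which links RNA granules to lysosomes, was the only tested annexin whose groups overlapped, at 7185, 7585 and 7798 against 7727, 7502 and 7647 (log2 fold change 0.02 ± 0.05, edgeR adjusted p 0.745).

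In all, 9 of 12 annexins were tested, with 1 called higher and 2 lower. That was 33.3% of those tested, against 22.6% of all tested genes (16.5% higher and 6.08% lower). The log2 fold change was positive in 4 and negative in 5, with a median of -0.13. ANXA13 had no count in any library, ANXA10 had 1 count in 1 Delta-TRRAP library, and ANXA8 had 0 counts in WT and 2 or 3 in each Delta-TRRAP library. ANXA8 has a near-identical copy, ANXA8L1, and only uniquely mapped reads were counted, so its counts are uncertain. A library with 0 counts allows a level of up to 3 counts, or 0.07 to 0.086 CPM, and this limit covers counting error only.

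Among the S100 genes only S100P fell by more than ANXA3. S100P, an S100 protein first isolated from placenta and frequent in carcinomas, was at 835.9, 813.5 and 686.8 in WT and at 43.15, 41.92 and 63.47 in Delta-TRRAP. The lowest WT library was more than an order of magnitude above the highest Delta-TRRAP library. S100P (chromosome 4, 6693878 to 6697170) fell 15.8-fold, from 778.7 ± 80.42 to 49.51 ± 12.1, with a log2 fold change of -3.98 ± 0.13 and an edgeR adjusted p of 9.42e-13.

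S100A4, known for its link to metastasis and for binding non-muscle myosin heavy chain, was at 491.4, 529.5 and 506.7 in WT and 85.31, 89.69 and 61.35 in Delta-TRRAP. It fell 6.43-fold (log2 fold change -2.68 ± 0.11, edgeR adjusted p 1.39e-11). S100A6, or calcyclin, was at 148.9, 127.6 and 128.2 in WT and 18.63, 23.4 and 21.16 in Delta-TRRAP. Its fall of 6.37-fold (log2 fold change -2.67 ± 0.17, edgeR adjusted p 1.71e-09) was of nearly the same size as that of S100A4. S100A1, a regulator of calcium handling in heart muscle, was at 179.3, 198.6 and 196.4 in WT and 93.16, 72.14 and 92.03 in Delta-TRRAP. It fell 2.23-fold (log2 fold change -1.16 ± 0.12, edgeR adjusted p 6.23e-07), and in none of these 3 genes did the groups overlap.

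The rises were in S100 genes of low level. S100A10, also called p11, the S100 protein that cannot bind calcium and pairs with ANXA2, was at 23.3, 22.06 and 26.45 in WT and 78.45, 72.14 and 70.87 in Delta-TRRAP. It rose 3.08-fold, with a log2 fold change of 1.62 ± 0.18 and an edgeR adjusted p of 9.67e-07. S100A5 was at 4.053, 4.796 and 5.087 in WT and at 22.55, 11.7 and 34.91 in Delta-TRRAP. All Delta-TRRAP libraries were higher but they varied widely, and the log2 fold change of 2.26 ± 0.45 (edgeR adjusted p 3.86e-04) lay between 1.85 and 2.59 when 1 library was left out, lowest without Delta-TRRAP replicate 3. The WT mean of S100A5 was under the filter of 5.

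**Figure D2:**
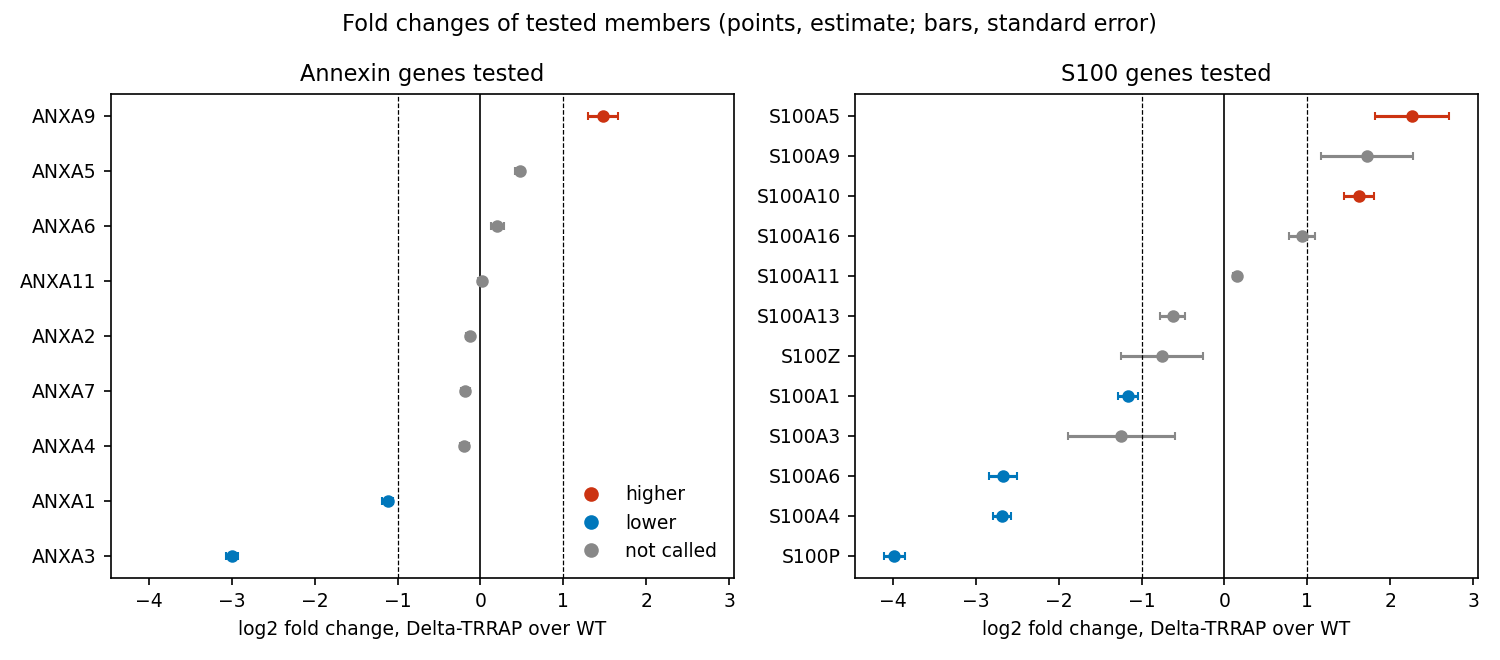
Log2 fold change of each tested member, Delta-TRRAP over WT, for 9 annexins and 12 S100 genes; points are estimates, bars the standard error, dashed lines a 2-fold change and colours the call. The 6 lower members reach from -1.12 in ANXA1 to -3.98 in S100P, and the 3 higher ones from 1.48 in ANXA9 to 2.26 in S100A5.

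S100A11, which pairs with ANXA1, was the most abundant S100 gene and was not called: its libraries were at 2477, 2659 and 2574 in WT and 2899, 2708 and 2956 in Delta-TRRAP (log2 fold change 0.15 ± 0.05, edgeR adjusted p 0.0199). S100A13, which takes part in the release of fibroblast growth factor, was at 244.2, 237.9 and 174 in WT and 163.8, 113.1 and 149.1 in Delta-TRRAP. Every Delta-TRRAP library of S100A13 was below every WT library, and its log2 fold change of -0.63 ± 0.15 passed the adjusted p (0.00152 by edgeR) but not 2-fold, and missed it without WT replicate 1 (0.0128) or WT replicate 2 (0.0112). The tested members under a mean of 100 that were not called were S100A16, S100A9, S100A3 and S100Z, with log2 fold changes from -1.25 to 1.72. S100A16 (log2 fold change 0.94 ± 0.16, edgeR adjusted p 9.12e-05) and S100A9 (1.72 ± 0.56, edgeR adjusted p 0.0127, from 8 counts in WT and 27 in Delta-TRRAP) were called higher once Delta-TRRAP replicate 3 was left out, at 1.02 and 1.96. S100A3 and S100Z overlapped between groups.

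In all, 12 of 19 S100 genes were tested, with 2 called higher and 4 lower, and the median log2 fold change was -0.69. The called genes were 50% of those tested, against 22.6% of all tested genes (16.5% higher and 6.08% lower). S100A12 and S100G had no count, and S100A2, S100A7, S100A8, S100A14 and S100B had counts but did not pass the filter. Thus S100A8, the partner of S100A9 in calprotectin, and S100B, a marker of glia, were at or near 0 in these cells. Over both families the groups did not overlap in 18 of 21 tested members, against 71.1% of all tested genes.

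Chromosomal position was not used to choose the members. Of the 19 S100 genes, 15 lay on chromosome 1, and 13 of these fell within 274.2 kb between S100A9 and S100A1 (153357854 to 153632039). S100A6, S100A5 and S100A4 are consecutive on the minus strand, with 903 and 1848 bases from the end of one to the start of the next in GENCODE. The log2 fold change was 2.26 in S100A5 and, in its neighbours S100A6 and S100A4, -2.67 and -2.68. The 22 other tested genes with a mean of 100 or more within 1 Mb of this cluster had a median log2 fold change of -0.03. Of these, 3 were called higher and 0 lower, against 16.5% and 6.08% of all tested genes. The corresponding medians were 0.15 over 14 neighbours of S100P, 1 of them called higher, and -0.48 over 9 neighbours of ANXA3, none of them called.

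The gene spans of S100A3 and S100A4 overlap on the same strand. The counting drops reads that cover exons of both, and whether their exons overlap was not checked. S100A13 and S100A1 overlap on opposite strands that the stranded counting keeps apart.

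**Figure D3:**
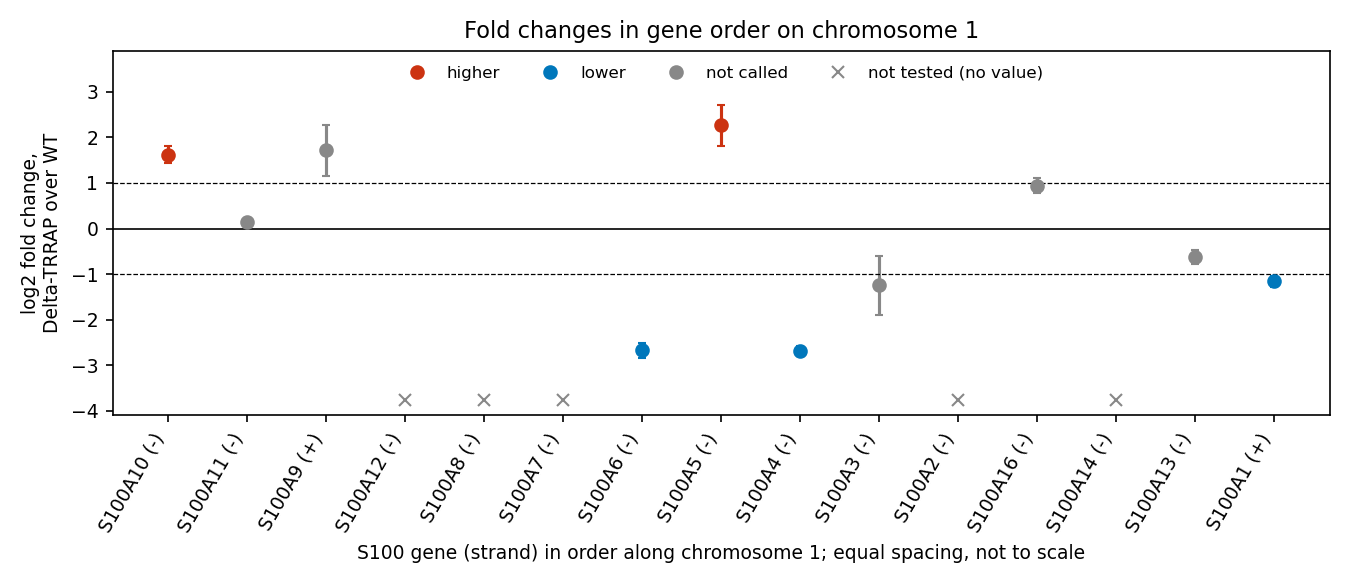
Log2 fold change, Delta-TRRAP over WT, of the 15 S100 genes of chromosome 1 in gene order (equal spacing, not to scale); bars are the standard error, dashed lines a 2-fold change, and crosses at the foot mark genes not tested, which have no value. S100A5 is higher (2.26) between S100A6 and S100A4, which are lower (-2.67 and -2.68).

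Levels can be set side by side between genes only per length. Per kilobase of the canonical transcript, ANXA1 stood at rank 75 of 19041 genes in WT and rank 129 in Delta-TRRAP, and ANXA2 at rank 238 and 228. ANXA1 made up 61.3% ± 2.48 of the summed annexin level per kilobase in WT and 44.4% ± 0.224 in Delta-TRRAP (SD, n = 3). ANXA2 moved from 20.4% to 29.3% and ANXA5 from 5.32% to 11.6%, while ANXA3 went from 3.16% to 0.622%. By the union of all exons, a longer measure for ANXA2, this gene held 8.15% and 11% and stood at rank 1445 and 1358, and ANXA5 held 8.87% and 18.2%. These shares sum to the whole family, so the share of ANXA2 is larger although its own level was not called. The summed annexin level per kilobase lay between 46194 and 52068 in WT libraries and between 30395 and 31614 in Delta-TRRAP libraries.

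Among the S100 genes, S100A11 held 54.2% ± 1.98 of the summed S100 level per kilobase in WT and 83.5% ± 0.621 in Delta-TRRAP. S100P went from 19.6% to 1.72% and S100A4 from 11.8% to 2.54%. S100P passed from the second place in the family to the sixth by canonical length, but by the union of exons it held the second place in both groups, at 25.3% and 2.15%. S100A10 reached 0.323 to 0.403 per 100 of ANXA2 in WT and 1.15 to 1.28 in Delta-TRRAP, per kilobase of canonical transcript, and 1.6 to 1.99 and 5.67 to 6.34 by the union of exons. The mRNA of S100A10 was far below that of the annexin it pairs with in all 6 libraries.

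**Figure D4:**
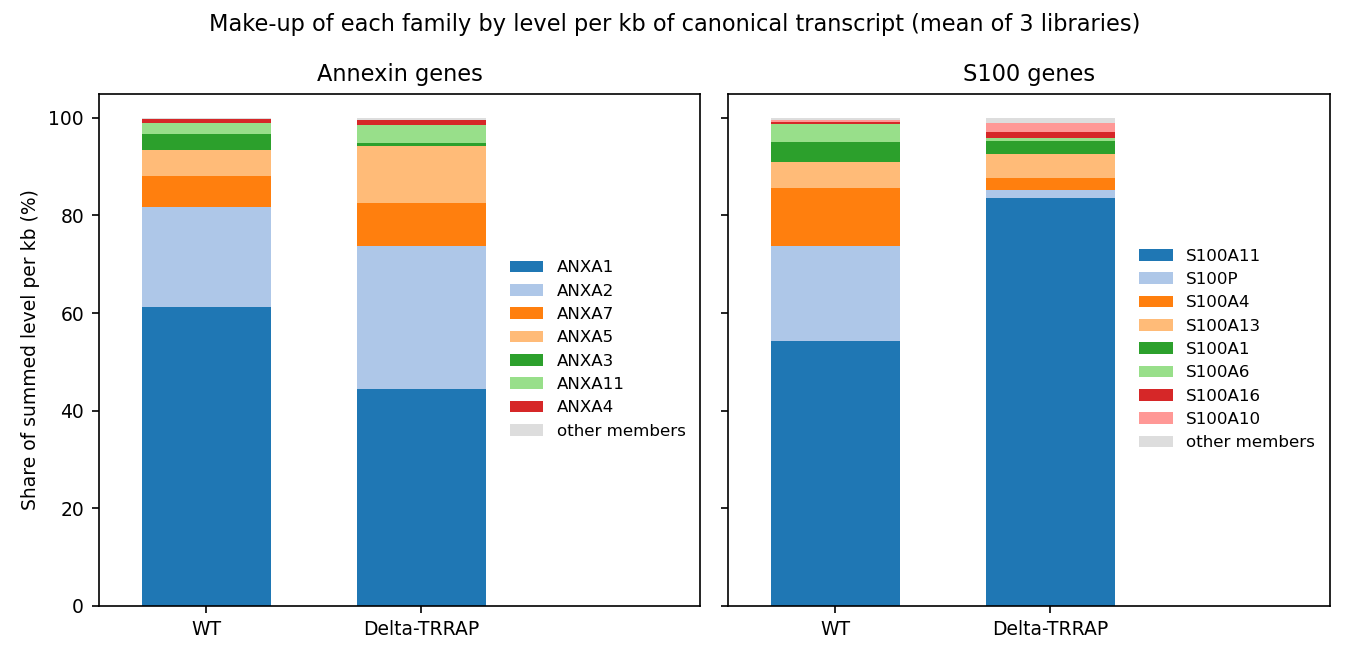
Share (%) of the summed level per kilobase of canonical transcript taken by each gene within the annexins and within the S100 genes, mean of 3 libraries per group. ANXA1 shrinks from 61.3% to 44.4% of the annexins and S100A11 grows from 54.2% to 83.5% of the S100 genes as S100P and S100A4 fall.

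Known partners and relatives were taken from lists of other genes. Of 24 partners and receptors of annexins and S100 proteins, 19 were tested, 3 were called higher and 1 lower. That was 21.1% of those tested, against 22.6% of all tested genes, and the median log2 fold change was -0.30. PLA2G4A, the cytosolic phospholipase A2 that annexins can inhibit, rose from 25.28 ± 6.451 to 585.6 ± 13.81 (log2 fold change 4.53 ± 0.12, edgeR adjusted p 1.32e-13). In the plasminogen system that ANXA2 and S100A10 feed, PLAU, the urokinase activator, fell from 436.4 ± 26.18 to 168.3 ± 3.615 (log2 fold change -1.37 ± 0.08, edgeR adjusted p 1.29e-09). AHNAK2, also called higher, had a mean under 100. MYH9, the myosin bound by S100A4, was not called (log2 fold change -0.17 ± 0.08, edgeR adjusted p 0.083). CACYBP, the S100A6-binding protein, went from 20850 ± 721.5 to 12214 ± 533.2. It passed the adjusted p but not 2-fold (log2 fold change -0.77 ± 0.05, edgeR adjusted p 4.57e-09). MYH9 and CACYBP were singled out after their values were seen.

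Of 19 membrane repair genes and ferlins, 16 were tested, 4 were called higher and 1 lower, with a median log2 fold change of -0.03. That was 31.2% of those tested, against 22.6% of all tested genes (16.5% higher and 6.08% lower). DYSF, the ferlin of muscle membrane repair, rose from 195.3 ± 22.83 to 486.4 ± 52.32 (log2 fold change 1.32 ± 0.10, edgeR adjusted p 1.8e-08). SMPD1, the acid sphingomyelinase, rose from 374.7 ± 5.558 to 801.4 ± 22.08 (log2 fold change 1.10 ± 0.06, edgeR adjusted p 6.17e-10). CAV1, the caveolar coat protein, fell from 236.6 ± 20.27 to 74.31 ± 7.035 (log2 fold change -1.67 ± 0.12, edgeR adjusted p 7.15e-09). MYOF and OTOF, also called higher, had means under 100.

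Of 17 genes in a list of other EF-hand calcium sensors, which also holds the S100P-binding protein S100PBP, all were tested. Of these 1, GCA, was called higher and 0 lower, or 5.88%, against 22.6% of all tested genes. The median log2 fold change of this list was -0.31, and 14 passed the adjusted p without regard to fold, 4 with a positive and 10 with a negative log2 fold change. Of all tested genes 58.3% passed it, 5874 with a positive and 5275 with a negative log2 fold change. The 7 S100 fused-type genes, which join an S100 domain to a long repeat and are epidermal, were not tested, 5 having no count and the other 2 near 0.

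**Figure D5:**
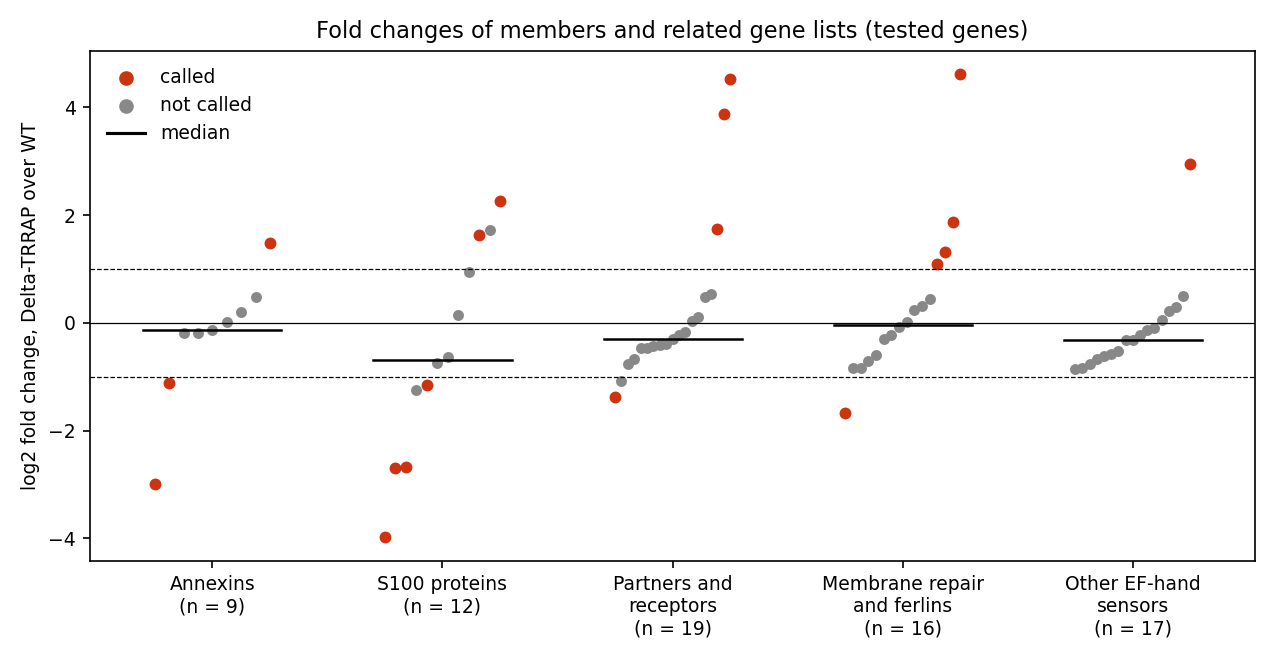
Log2 fold change, Delta-TRRAP over WT, of each tested gene in the annexins (9), the S100 proteins (12), partners and receptors (19), membrane repair genes (16) and other EF-hand sensors (17); red points were called, bars are medians and dashed lines a 2-fold change. The medians run from -0.69 in the S100 proteins to -0.03 in the membrane repair genes.

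In bulk samples fewer cells of a type and less RNA per cell cannot be told apart. Markers of K562 and erythroid cells were detected throughout, with all 10 tested, 2 called higher (HBZ and HBE1), 1 lower (TFRC), and a summed level between 223191 and 225510 (WT) and between 136013 and 140883 (Delta-TRRAP). The 10 monocyte and granulocyte markers, cells rich in several S100 proteins, summed to between 8104 and 8900 (WT) and between 973.9 and 1035 (Delta-TRRAP). That sum was mostly LYZ, at 8458 and 879.5, while FCN1, ELANE and CEACAM8 had no count. Of the 6 tested in that list, LYZ was called lower, and MPO (0.3198 to 19.39) and FCGR3B (11.56 to 28.97) were called higher. The 10 fibroblast markers summed to between 36.48 and 57.99 (WT) and between 920.3 and 973.9 (Delta-TRRAP). The Delta-TRRAP sum was mostly COL1A2, at 1.617 and 875.5, while LUM and PDGFRA had no count. Of the 4 tested in that list, COL1A2 and PDGFRB (1.653 to 9.337) were called higher. COL1A1 (28.69 and 30.05) and DCN (11.61 and 8.902) were not called. Epithelial markers summed to 23732 to 24437 and 25071 to 26810, with EPCAM called lower (6994 to 2399) and KRT19 at 2796 and 5127, not called. Endothelial markers summed to 669.8 to 689.7 and 402 to 481.6, mostly PECAM1 (674.1 and 400.6, not called), with TEK called higher (2.295 to 33.98). T and NK cell markers summed to 472.2 to 487.4 and 393.8 to 430.5, with NKG7 called lower (22.91 to 0.6518). The part of these shifts in the changes of annexin and S100 genes was not tested.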

How the data were processed

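Stranded poly(A) RNA-seq of 6 K562 libraries was used. The authors deposited the counts of uniquely mapped reads per gene (STAR on hg38, HTSeq 2.0.2 in reverse-stranded union mode, GENCODE 32), with no normalization and no summary rows. Discarding reads that map to several places lowers genes with near-identical copies, such as ANXA8, S100A7 and the parents of ANXA2 and S100A11 pseudogenes. The deposited table of normalized values, which has 3 further per-sample columns of another condition, and the authors' table of fold changes and p-values for WT over Delta-TRRAP were not used. Groups and replicate numbers came from the sample titles.

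Genes whose normalized counts averaged 5 or more (19114 of 34998 with a count) were tested with the quasi-likelihood F test of edgeR 4.0.16 in R 4.3.3, with TMM scaling and group as the only term, and Benjamini-Hochberg adjustment over all of them. Calls needed a 2-fold change as well as an adjusted p at or below 0.01. Standard errors are the log2 fold change over the root of F. The fit was tested on simulated counts with known changes. Alternatives were DESeq2 1.42.0, limma 3.58.1, other scalings, filters and thresholds, a replicate block, and leaving out each library. Levels per length used the canonical transcript of GENCODE 44 (99.6% of tested genes matched), and the union of exons was an alternative chosen after seeing the data. Promoters came from RefSeq. Within groups, pairs of libraries differed by more than counting noise (chi-square over degrees of freedom 5.433 to 17.51), so none was a repeat deposit.

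Values per library are given for called members and tested members with a mean of at least 100, and from each other list the called genes with such a mean, except 1 that is not reported here. The members and lists were chosen with earlier results of these data known.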

Additional observations from a re-analysis of the deposited data

How the results depend on the processing

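The 9 called members were called in every refit except these: ANXA1 was lost with scaling by library size alone, and ANXA9, S100A5 and S100A10 lie below a minimum mean count of 50. DESeq2 called 3 annexins and 6 S100 genes, the same genes, and 3983 genes in all. Without 1 library the calls ranged from 3 to 3 annexins, 6 to 8 S100 genes, 4060 to 4256 of all genes and 10 to 10 related genes. S100A16 and S100A9 were gained under upper-quartile scaling, library size alone and without Delta-TRRAP replicate 3. With no fold threshold 6 annexins were called, 11149 of all genes and 40 related genes. At 1.5-fold 6750 of all genes and 20 related genes were called, and with a minimum mean count of 50 1964 of all genes and 6 related genes. Over 252 refits of the 17 members given per library, 221 kept direction and side of the threshold, 19 no longer passed the adjusted p, 7 newly passed and 5 changed sign. The sign changed for ANXA11 with a minimum mean count of 1 (-0.0022), with no filter (-0.0045), without WT replicate 1 (-0.012) and without Delta-TRRAP replicate 1 (-0.00044), the leave-one-out range being -0.012 to 0.046, and for ANXA2 with library size alone (0.0063). The cause was not tested. By union of exons ANXA1 held 57.4% of the annexin level in WT and 39.2% in Delta-TRRAP, and S100A11 60.6% and 90.2% of the S100 level, and ANXA7 took the second place in place of ANXA2. The replicate numbers did not pair the libraries (correlations of deviations -0.0095, -0.029 and -0.019), and the replicate block gave 3 annexins, 6 S100 genes, 4184 of all genes and 10 related genes. Members under a mean of 50 rest on few counts, S100A9 on 8 in WT, and small differences there were not detectable at this depth.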
